A study of Ovis aries with 3 samples.

Results

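*REG4*, *UPK3A*, *NRG2*, *SRGN*, *FOXK1* and *PMP22* are 6 sheep genes that were far higher in a day 16 embryo library than in a day 19 library of the same breed. They were picked from 26478 listed genes, 16670 of them with a symbol, for exactly that contrast, so its ratios are given as a description with no test. The questions addressed here are which day 16 cells carried each gene, and whether its lower level at day 19 went with fewer such cells or with less of its RNA in cells that were still there.

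The study set Hulunbuir short-tailed sheep (HSTS), which carry a mutation in the *T* (*Brachyury*) gene, beside Hu sheep (HS) with the wild-type allele, to follow tail development. Whole embryos were dissociated with collagenases, treated with red blood cell lysis buffer and run on a droplet platform that counts unique molecular identifiers (UMIs), each standing for 1 captured RNA molecule read at its 3′ end. E16 HS is a library of Hu sheep at embryonic day 16, E19 HS of Hu sheep at day 19, and E19 HSTS of Hulunbuir short-tailed sheep at day 19. Each group is 1 library, so age, breed, embryo and library cannot be told apart in any comparison. Labels give 1 embryo for E16 HS where the methods count 3, and whether these were pooled could not be settled. Which fetal membranes stayed on each embryo is not given in the sources used here.

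After the study's wider cell filter (200 to 6000 genes, 1000 to 30000 UMIs, at most 10% mitochondrial UMIs) the libraries kept 11329, 10629 and 9618 cells in the order E16 HS, E19 HS and E19 HSTS, with median depths of 9046, 6900 and 8675 UMIs per cell. They held 113213654, 88733467 and 99580051 UMIs. Pairs of libraries shared 31 to 37 cell barcodes. Levels below are UMIs of a gene per 1000000 UMIs of the same cells (CPM). All ranges in parentheses are 95% intervals that cover counting error only, not the spread between embryos. They are exact, except that the weighted levels further below have approximate gamma intervals. The values are not scaled for transcript length, so levels are compared between cells and libraries and never between genes.

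The genes belong to unrelated families. *REG4* encodes a secreted C-type lectin known from intestinal epithelium. *NRG2* encodes a neuregulin, a growth factor that signals through ERBB receptors. *UPK3A* encodes a uroplakin, a membrane protein of the plaques that line the urinary tract, and *PMP22* a membrane protein best known from the myelin of peripheral nerve. *SRGN* encodes serglycin, the proteoglycan that packs the secretory granules of blood cells, and *FOXK1* a forkhead transcription factor expressed in many tissues. Between these ages sheep embryos form somites, a heart and primitive blood while the fetal membranes expand around them.

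In E16 HS, *REG4* had 2385 UMIs, against 1 in E19 HS and 8 in E19 HSTS. *UPK3A* had 2998, 55 and 15 UMIs in that order, and *NRG2* had 520, 23 and 53. Both E19 libraries were therefore near zero for *REG4* and low for *UPK3A* and *NRG2*. *SRGN* had 4646, 215 and 95 UMIs, and *PMP22* had 3309, 208 and 181. *FOXK1* had a different order, with 939 UMIs in E16 HS, 59 in E19 HS and 417 in E19 HSTS.

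Scaled to depth, *REG4* stood at 21.1, 0.0113 and 0.0803 CPM in the same order. *UPK3A* stood at 26.5, 0.62 and 0.151 CPM, and *NRG2* at 4.59, 0.259 and 0.532 CPM. *SRGN* stood at 41.0, 2.42 and 0.954 CPM, *PMP22* at 29.2, 2.34 and 1.82 CPM, and *FOXK1* at 8.29, 0.665 and 4.19 CPM. The ratio of E16 HS to E19 HS was 1869 for *REG4* (335 to 73864, resting on a single UMI in E19 HS), 42.7 for *UPK3A* (32.7 to 56.8) and 17.7 for *NRG2* (11.7 to 28.2). It was 16.9 for *SRGN* (14.8 to 19.5), 12.5 for *FOXK1* (9.58 to 16.5) and 12.5 for *PMP22* (10.8 to 14.4). All 6 thus lay past 4-fold, as did 0.876% of the 6960 genes with at least 500 UMIs in the higher of these libraries, from which nothing is read because the genes were chosen on this contrast.

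**Figure D1:**
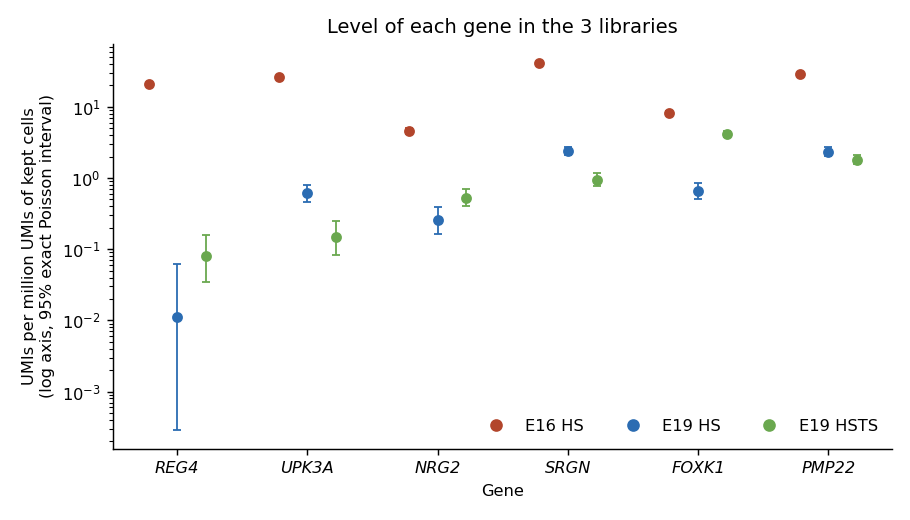
Level of each gene in UMIs per 1000000 UMIs of kept cells (vertical axis, logarithmic) in E16 HS, E19 HS and E19 HSTS; points are single libraries and bars exact 95% Poisson intervals. All 6 genes are highest in E16 HS, and *FOXK1* in E19 HSTS, at 4.19, lies nearer to E16 HS, at 8.29, than to E19 HS, at 0.665.

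E19 HSTS gives a second reading of day 19, although it is also another breed and shares the E16 HS library with the first. The ratio of E16 HS to E19 HSTS was 262 for *REG4* (133 to 608), 176 for *UPK3A* (106 to 314) and 43.0 for *SRGN* (35.1 to 53.3). It was 16.1 for *PMP22* (13.8 to 18.8) and 8.63 for *NRG2* (6.5 to 11.7). *FOXK1* was at 1.98 (1.76 to 2.23). So 5 of the 6 genes passed 4-fold against E19 HSTS, where 1.3% of 7017 genes did, and *FOXK1* did not.

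The cells were clustered on 2000 variable genes with the 6 genes left out, and clusters were named only as resembling a cell type from marker lists. The UMIs of 5 of the 6 genes in E16 HS fell mostly into 1 cluster each. *REG4*, *NRG2* and *PMP22* shared cluster 11, with 94.1%, 89.4% and 88.6% of their UMIs. Cluster 24 held 95.7% of *UPK3A* and cluster 6 held 81.0% of *SRGN*. *FOXK1* had no such home, since its fullest cluster, again cluster 11, held 26.2%.

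**Figure D2:**
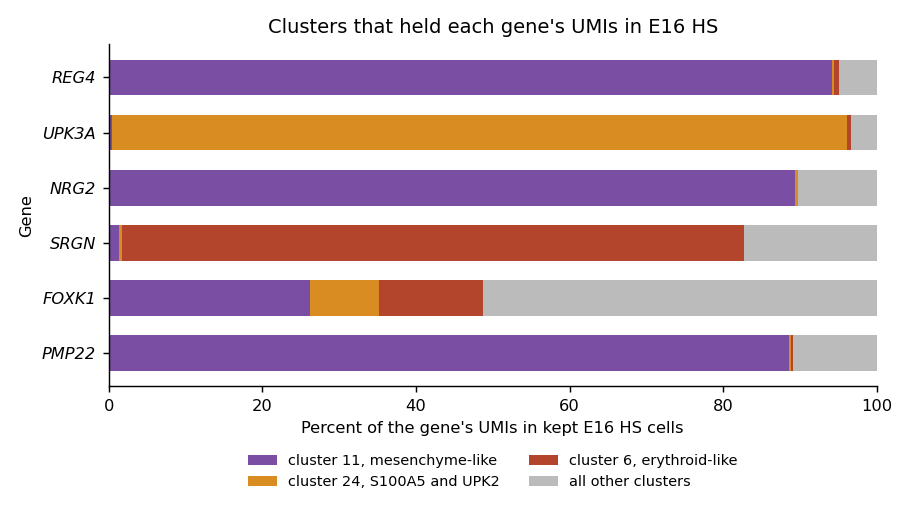
Percent of each gene's UMIs in kept E16 HS cells (horizontal axis) that lay in clusters 11, 24 and 6 and in all other clusters. *REG4*, *NRG2* and *PMP22* fill from cluster 11, *UPK3A* from cluster 24 and *SRGN* from cluster 6, while *FOXK1* is spread, with 26.2% in cluster 11.

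Cluster 11 held 1294 cells of E16 HS, 3 of E19 HS and 2 of E19 HSTS. It was called mesenchyme-like from *COL1A1*, a chain of type I collagen seen in 97.2% of its E16 HS cells, and the matrix proteoglycans *LUM* and *DCN*, seen in 98.1% and 96.1%. Of the other mesenchyme markers, *COL1A2*, *COL3A1* and *TMEM88* were in at least 97.1%, and *PDGFRA*, *POSTN*, *PRRX1* and *TWIST2* in at most 27.7%. *HAND2* and *PITX1*, transcription factors of lateral and limb mesoderm, were seen in 62.7% and 47.0%. The rest of the lateral plate list was in at most 26.7%. The same cells carried the simple epithelial keratins *KRT18* and *KRT19*, in 96.3% and 93.0%, and *APOA1*, an apolipoprotein made by liver and yolk sac, in 87.2%. Of the 9 measured markers of extraembryonic and hepatic endoderm, *APOA1* and the retinol carrier *RBP4*, in 95.9%, were common there, and the other 7, *AFP*, *TTR* and *FGG* among them, were in at most 5.64% of cells. Epithelial *EPCAM*, *CDH1* and *KRT7* were at or below 2.94% of cells, and the trophoblast and amnion factor *GATA3* was in 1.62%. Of the trophoblast list, which also holds *KRT18*, *KRT8* was in 84.9%, and of the amnion list *IGFBP5* was in 76.5%. *ELF3* and *HAND1* were in 10.9% and 10.5%, and the rest of both lists in at most 4.87%. At least 2 trophoblast markers were seen in 83.3% of *REG4* carriers, against 39.8% of other E16 HS cells. A plain mesenchymal label thus leaves out the keratins and the apolipoprotein, and the cluster is described below by its number. The mix was not particular to cluster 11. Among E16 HS cells of mesenchyme-like cluster 17, *COL1A1*, *KRT18* and *KRT19* were in at least 99.7%, *APOA1* in 85.3% and *RBP4* in 81.8%. *HAND2* and *PITX1* were in 46.6% and 36.7% of them. Cluster 17 was shared by all libraries, at 313, 174 and 142 cells. Whether its day 19 cells held the same mix was not tested.

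*REG4* was seen in 58.1% of the cluster 11 cells of E16 HS (55.4% to 60.8%), whose median depth was 14291 UMIs. At a fixed 3000 UMIs per cell the share was 27.2%. Somite-like cells, thought to lack the gene, gave 0.83% at a median of 7731 UMIs and 0.285% when thinned, which is read as background. Its level in cluster 11 was 118 CPM (113 to 123), and single cells ranged from 0 to 28 UMIs. Of the 1294 cells, 542 had none, 612 had 1 to 4 and 140 had 5 or more.

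*PMP22* was seen in 72.4% of those cells (34.2% when thinned) at 155 CPM (149 to 160), with up to 18 UMIs in a cell. *NRG2* was seen in 27.0% (7.47% when thinned) at 24.5 CPM (22.3 to 26.8), with up to 6. In somite-like cells the shares were 3.04% for *PMP22* and 0.775% for *NRG2*. Over all kept E16 HS cells, 69.4% of the cells with *REG4* also had *PMP22*, against 6.14% of the others, and 58.8% of the cells with *NRG2* had *REG4*, against 5.81%.

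Much of that shared carriage went with membership of the cluster. Within cluster 11 at 3000 UMIs per cell, *PMP22* was seen in 37.4% of the cells with *REG4* (32.3% to 42.8%) and in 32.9% of those without (29.9% to 36.1%), and these intervals overlap. *NRG2* was seen in 11.1% of thinned cells with *REG4* (7.98% to 14.9%) and in 6.11% of those without (4.65% to 7.86%), whose intervals do not. *UPK3A* and *SRGN* were rare in *REG4* cells, at 1.95% and 4.7% before thinning.

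Genes enriched in the carriers described the same cells. Among genes seen in at least 10% of *REG4* carriers, the highest ratio of CPM in carriers to other E16 HS cells was for *HOXC12*, a posterior homeobox gene, at 27.1 (19 to 39.5), followed by *FGF7*, a growth factor that mesenchyme sends to epithelium, at 15.7 (12.9 to 19.1). The thyroid hormone precursor *TG* followed at 13.4 (9.99 to 18). *NRG2* and *PMP22* came next at 12.5 and 12.2. The rest of the first 10 were carboxypeptidase M, the nebulin relative *NEBL*, the collagen *COL12A1*, annexin *ANXA1* and the ectonucleotidase *NT5E*, at 8.61 to 12.0.

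*PMP22* carriers were led by *FGF7* at 35.7 (27.2 to 47.5) and *NEBL* at 21.2 (19.3 to 23.3), then *REG4* at 19.7 and *NRG2* at 17.9. The mesodermal factor *TBX20* stood at 14.1 (11.1 to 18). *NRG2* carriers were led by the endopeptidase *PHEX*, at 8.53 (5.94 to 12.1), then *REG4* at 8.45 and *FGF7* at 7.73. *FGF7* and *NEBL* were thus among the first 10 of all 3 lists, which rest largely on the same cells.

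Inside cluster 11 the carriers of *REG4* and of *PMP22* were each compared with the other cells. *REG4* carriers had more *HOXC12* than the cluster's other cells, at a ratio of 3.84 (2.46 to 6.26), and more *HHIP*, an inhibitor of hedgehog signalling, at 3.3 (2.39 to 4.64). *PMP22* carriers had more of the neuronal membrane glycoprotein gene *GPM6A*, at 3.74 (2.62 to 5.51), the endosomal *SNX10*, at 3.5 (2.63 to 4.75), *VEGFA*, at 3.36 (2.42 to 4.79), and the laminin receptor chain *ITGA6*, at 3.11 (2.62 to 3.71). Whether the genes that went with *REG4* and with *PMP22* differ was not tested. Deeper cells are more often called carriers, and the part of depth in these ratios was not tested.

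At day 19 cluster 11 itself was nearly empty. The 3 cells of E19 HS held no *REG4* or *NRG2* and 1 UMI of *PMP22*, and the 2 cells of E19 HSTS held the same. In each E19 library the cell with *PMP22* was among the highest doublet scores, although the scoring called no doublets in E19 HS. A coarser clustering, at the resolution of 0.25 that the study used, gave a home cluster of 1557, 70 and 41 cells, with 2252, 0 and 2 UMIs of *REG4*, 479, 0 and 1 of *NRG2* and 3056, 37 and 20 of *PMP22*. Clustering E16 HS with E19 HS alone gave 1568 and 32 cells, with 2250 and 0 UMIs.

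The same was asked without clusters, by counting cells that carried several of the genes enriched in carriers, with the 6 genes themselves left out and all cells thinned to 3000 UMIs. Cells with at least 3 of the 8 genes of the *REG4* list numbered 160 of 10012 in E16 HS, 2 of 9284 in E19 HS and 0 of 8512 in E19 HSTS. With at least 2 genes they numbered 563, 32 and 29, in which *REG4* stood at 133 CPM (125 to 141) in E16 HS, with 0 UMIs in E19 HS and 2 UMIs in E19 HSTS. For the *PMP22* list the cells with at least 3 genes numbered 147, 10 and 13, with 227, 45.5 and 17.3 CPM, the day 19 values resting on 4 and 3 UMIs. With at least 2 genes they numbered 529, 84 and 75, at 187 CPM (178 to 197), 10.1 CPM (4.36 to 19.9) and 12.3 CPM (6.15 to 22). The cells picked in this way were fewer at day 19 and held less *REG4* and *PMP22* each. For the *NRG2* list the cells with at least 3 genes numbered 57, 2 and 2. The lists were drawn from E16 HS carriers, and the 6 genes from this same contrast, so these counts are a description and no separate check.

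*REG4* was also near zero in related cells that remained. The whole mesenchyme-like class had 2267, 2065 and 1480 cells, and *REG4* went from 84.7 CPM (81.3 to 88.3) in E16 HS to 0 UMIs in E19 HS, which allows up to 0.206 CPM, and 0.248 CPM (0.0512 to 0.725) in E19 HSTS. The E16 HS cells of that class were mostly cluster 11, and those of E19 HS and E19 HSTS mostly clusters 2 and 4. Cluster 17 was the other collagen-rich cluster, with *POSTN* and *WNT2*, and its E16 HS cells shared the keratins and *APOA1* of cluster 11. In those E16 HS cells *REG4* stood at 2.54 CPM (1.1 to 5), far under its level in cluster 11. The 142 cells of E19 HSTS in cluster 17 stood at 2.55 CPM (0.526 to 7.45) on 3 UMIs. The other 5 UMIs of E19 HSTS lay in cluster 9, an epithelium, and in the erythroid-like cluster 23, and the single UMI of E19 HS lay in cluster 9.

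*PMP22* differed from *REG4* in this respect. In cluster 17, which had 313, 174 and 142 cells, it stood at 39.6 CPM (33 to 47.2), 30.1 CPM (21.7 to 40.6) and 23.8 CPM (15.8 to 34.4). In neural crest-like cells, named from *SOX10*, *TFAP2B* and *ERBB3*, it stood at 16.9, 9.73 and 14.5 CPM on 42, 11 and 17 UMIs. The ratio of E16 HS to E19 HS was 1.32 in cluster 17 (0.923 to 1.92) and 1.74 in the crest-like cells (0.881 to 3.75), and both intervals include 1. In somite-like cells *PMP22* stood at 3.61, 3.2 and 2.26 CPM. Cluster 2, a mesenchyme-like cluster with *TCF21* and *POSTN*, did differ, at 9.97 CPM in E16 HS and 4.95 CPM in E19 HS, a ratio of 2.02 (1.2 to 3.45).

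Over all clusters with at least 10 cells in E19 HS, weighted by their UMIs in E16 HS, *PMP22* stood at 5.49 CPM in E16 HS and 5.22 CPM (4 to 6.89) in E19 HS. The 3 clusters left out of that sum, 6, 11 and 24, held 3267 E16 HS cells and 89.1% of its UMIs, so it speaks only for the rest. Weighted by broader cell classes, all of which E19 HS had, *PMP22* stood at 29.2 CPM in E16 HS and 3.36 CPM (2.66 to 4.31) in E19 HS. Its level thus differed little on average over the clusters that both ages had and strongly within the mesenchyme-like class as a whole. Of 17 classes compared, the ratio of E16 HS to E19 HS had an interval above 1 in 3 and below 1 in 1. The class below 1 was caudal progenitor-like cells, at 0.175 (0.0692 to 0.501) on 17 and 7 UMIs.

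*NRG2* was low in both Hu sheep libraries outside the clusters left out of the weighted sum. In clusters other than those 3, weighted in the same way, it stood at 0.809 CPM in E16 HS and 0.33 CPM (0.18 to 1.1) in E19 HS. In the mesenchyme-like class it stood at 18.3, 0.756 and 2.32 CPM. The 53 UMIs of E19 HSTS included 18 from the 782 cells of cluster 4, a mesenchyme-like cluster led by histone genes, against 2 UMIs from 981 such cells of E19 HS. *NRG2* was 2.05 times as high in E19 HSTS as in E19 HS (1.24 to 3.51), where *REG4* rested on 8 and 1 UMIs.

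All 8 neuregulins and ERBB receptors of the list were measured. Of them *NRG2*, which was chosen for this contrast, alone passed 4-fold between E16 HS and E19 HS. Among genes with at least 100 UMIs in the higher library 1.26% of 10437 did, and nothing is read from the count. *NRG1* stood at a ratio of 1.19 (1.01 to 1.4), and *NRG4* at 1.01 (0.692 to 1.47). *NRG3* and *ERBB4* were lower in E16 HS, at 0.362 (0.166 to 0.743) and 0.339 (0.217 to 0.52). In cluster 11 the receptor *EGFR* had 214 UMIs, but *ERBB3* had 1 and *ERBB4* 0, so the 2 receptors to which neuregulins bind were near zero in the cells that carried *NRG2*. *ERBB3* was in 15.7% of the E16 HS cells of cluster 24.

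Relatives of *PMP22*, itself chosen for this contrast, moved less. *EMP1* stood at 3.66 (2.07 to 6.88) between E16 HS and E19 HS, *EMP2* at 1.48 (1.37 to 1.59) and *EMP3* at 1.29 (1.2 to 1.38). *REG3G*, *REG1A* and *REG3A*, the other REG genes of the list, were not analysed here.

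*UPK3A* marked a small group of epithelial cells. Cluster 24 held 331 cells of E16 HS, 6 of E19 HS and 2 of E19 HSTS, and was led by the calcium-binding *S100A5*, the secreted *WFDC2*, *KRT7*, the nuclear receptor *PPARG* and the uroplakin *UPK2*. Its E16 HS cells carried the epithelial *CLDN7*, *CLDN4* and *EPCAM* in 92.1%, 94.3% and 89.7%, and *GATA3* in 52.6%. Markers of gut epithelium and of trophoblast each had 1 gene, *KRT7* in both cases, among its 10 leading genes. *FOXA2* was in 2.72% and *SOX17* in none of the cells, *PAX2* and *PAX8* of the nephric duct in 0.604% and 2.72%, and *ELF5*, a trophoblast factor, in 25.7%. Of the other trophoblast factors of the list, *ELF3* was in 29.6% and *GATA2*, *TFAP2C*, *TFAP2A* and *HAND1* were in at most 2.42%. The cluster is therefore left without a cell type name.

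In those 331 cells *UPK3A* stood at 590 CPM (569 to 612) and was seen in 91.5% (88% to 94.3%), or 66.5% when thinned. The median was 6 UMIs per cell and the highest 49, and 114 cells had 10 or more. Outside the cluster no E16 HS cell had more than 7. Somite-like cells gave 0.885% with a UMI, or 0.228% when thinned.

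The carriers held other urothelial plaque genes. *UPK2* had the highest ratio of CPM in *UPK3A* carriers to other E16 HS cells, at 499 (224 to 1378), on 166 and 6 UMIs. It was followed by *EVPL*, an envelope protein of stratified epithelia, at 231 (125 to 473), the sorting nexin *SNX31* at 219 (102 to 561) and *S100A5* at 151 (132 to 173). *PPARG* stood at 110 (79.6 to 155), *UPK1A* at 108 (50.7 to 265), the epithelial factor *EHF* at 81.1 (50.7 to 135) and *WFDC2* at 60.4 (58.3 to 62.7).

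All 5 uroplakins of the list were measured, and within cluster 24 of E16 HS the other 4 were seen in 41.1% of cells for *UPK1B*, 34.7% for *UPK2*, 13.3% for *UPK1A* and 3.02% for *UPK3B*. By library, *UPK2* had 172, 1 and 0 UMIs in the order E16 HS, E19 HS and E19 HSTS, *UPK1B* had 315, 60 and 43, and *UPK1A* had 56, 11 and 8. The ratio of E16 HS to E19 HS was 4.11 for *UPK1B* (3.11 to 5.52) and 3.99 for *UPK1A* (2.07 to 8.45). Both lay well under that of *UPK3A*, which was chosen for this contrast, while *UPK2* stood at 135 (23.9 to 5355) on a single E19 HS UMI. *UPK3B* had 13, 7 and 2 UMIs.

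The few day 19 cells of cluster 24 still carried the gene. The 6 cells of E19 HS held 0, 2, 2, 6, 11 and 12 UMIs, and the 2 cells of E19 HSTS held 4 and 5. That is 535 CPM (368 to 751) and 283 CPM (130 to 538), beside 590 CPM in E16 HS, so the level in E19 HS was within counting error of that at day 16. The share of kept cells that fell in the cluster went from 2.92% to 0.0564% and 0.0208%. None of these 8 cells shared a barcode with E16 HS. Counting without clusters gave lower day 19 levels. Cells with at least 3 of the 10 genes enriched in carriers numbered 118, 4 and 0 after thinning, and held *UPK3A* at 917 CPM (872 to 963) in E16 HS and 431 CPM (260 to 673) in E19 HS. With at least 2 genes they numbered 246, 18 and 11, at 669 CPM (643 to 696), 164 CPM (113 to 230) and 57.1 CPM (26.1 to 108). By this count, whose genes were also drawn from E16 HS carriers, both the number of such cells and the level in them were lower at day 19.

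The rest of the day 19 UMIs were mostly in cluster 9, an epithelium with *CLDN7*, *EPCAM* and *CDH1* that had 473, 496 and 363 cells. There *UPK3A* stood at 5.41 CPM (3.5 to 7.99), 4.1 CPM (2.43 to 6.47) and 1.37 CPM (0.444 to 3.19), and the ratio of E16 HS to E19 HS was 1.32 (0.693 to 2.57). In cluster 9 the Hu sheep libraries thus did not differ beyond counting error. Elsewhere they did: *UPK3A* had 20 UMIs in mesenchyme-like and 17 in erythroid-like cells of E16 HS, at 0.75 and 0.613 CPM, and none in those of E19 HS. The part of free RNA in these low levels was not tested.

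The filter on cells mattered more for *UPK3A* than for the other 5 genes. The 312 barcodes of E16 HS with over 30000 UMIs or over 6000 genes held 3882 *UPK3A* UMIs, more than the 2998 of all kept cells together, at 280 CPM (272 to 289), and 112 of them carried it. They also held 167 of the 341 *UPK2* UMIs and 2634 of the 4973 *S100A5* UMIs of the deposited library. The 125 such barcodes of E19 HS and the 171 of E19 HSTS held no *UPK3A*, which allows up to 0.657 and 0.461 CPM. Whether these barcodes are large cells or several cells in a droplet was not tested. Over all deposited barcodes the ratio of E16 HS to E19 HS rose from 42.7 to 93.8 (72 to 125).

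**Figure D3:**
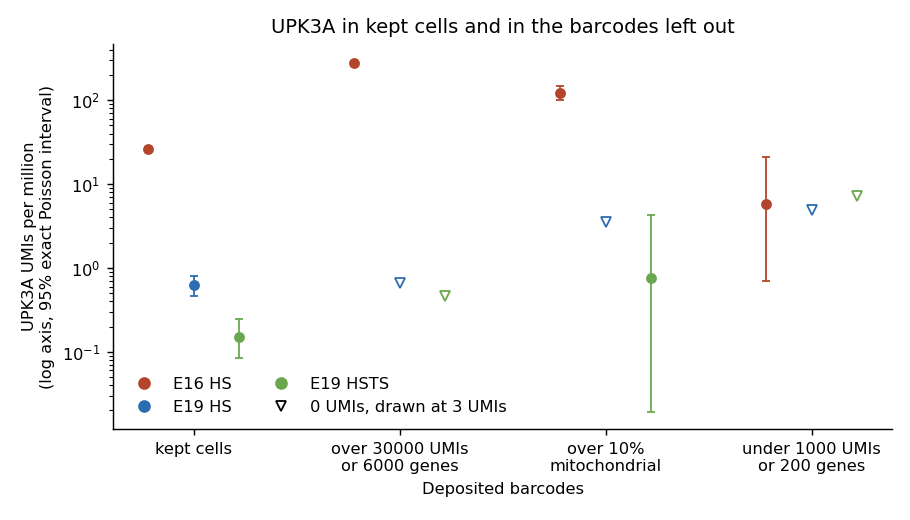
*UPK3A* UMIs per 1000000 UMIs (vertical axis, logarithmic) in kept cells and in the barcodes that each bound of the filter leaves out, by library; bars are exact 95% Poisson intervals and open triangles stand at 3 UMIs where none was counted. The deep barcodes of E16 HS stand at 280 and those of both day 19 libraries at none.

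*SRGN* followed another course, since its day 16 carriers were erythroid-like cells, a class that all libraries had. Cluster 6 held 1642 E16 HS cells and was erythroid-like. The globin chaperone *AHSP* was in 99.9% of these cells, the haem synthesis enzyme *ALAS2* in 99.2% and the erythroid factor *KLF1* in 88.8%. Of the other erythroid markers, *BLVRB*, *HEMGN* and *GATA1* were in at least 76.2%, *HBM* in 34.7% and *SLC4A1* in 27.7%. *SRGN* stood there at 158 CPM (153 to 163), was seen in 77.6% of cells (34.1% when thinned) and reached 12 UMIs in a cell. Somite-like cells gave 1.49%, or 0.628% when thinned.

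Its carriers were led by *FERMT3*, an integrin activator of blood cells, at a ratio of 15.2 (13.7 to 16.9) to other E16 HS cells. The other 9 of the first 10 included the red cell membrane genes *SLC4A1* at 12.5 (10.4 to 15.1) and *SPTB* at 12.2 (10.9 to 13.7), the red cell enzyme *PKLR* at 12.5 (9.89 to 16) and *KLF1* at 12.5 (11.7 to 13.3). Of the carriers, 93.6% had at least 2 of 8 erythroid markers, against 23.1% of other cells, and 2.25% had at least 2 of 7 megakaryocyte markers, against 0.115%.

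The erythroid-like class had 2004 cells of E16 HS, 1421 of E19 HS and 2637 of E19 HSTS, or 17.7%, 13.4% and 27.4% of kept cells, after a red cell lysis step that can set these shares. *SRGN* in the class stood at 154 CPM (150 to 159), 3.25 CPM (2.59 to 4.03) and 0.418 CPM (0.252 to 0.653). The 3 intervals do not overlap, and the ratio of E16 HS to E19 HS was 47.6 (38.3 to 59.8). Erythroid-like cells were still there at day 19 and the level of *SRGN* was lower in them.

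They were not the same cells in other respects. The E16 HS cells of the class were mostly cluster 6, which had 8 cells of E19 HS and none of E19 HSTS. The day 19 cells were mostly clusters 5, 8 and 19, with the metallothioneins *MT1C* and *MT2* among their leading genes. *HBM* was also among those of clusters 5 and 8. Cluster 23, also erythroid-like, was better shared, at 139, 115 and 205 cells. In it *SRGN* stood at 92.2 CPM (81.3 to 104), 1.23 CPM (0.254 to 3.6) and 0.732 CPM (0.151 to 2.14). The difference between ages was therefore also seen inside a shared cluster. In the 8 E19 HS cells of cluster 6 the gene had 4 UMIs, or 24.2 CPM (6.6 to 62).

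Counting without clusters, with genes again drawn from E16 HS carriers, gave like values and is no separate check. Cells with at least 2 of the 10 genes enriched in carriers numbered 997, 282 and 757 after thinning, and held *SRGN* at 162 CPM (155 to 169), 4.81 CPM (3.08 to 7.16) and 1.61 CPM (0.999 to 2.47). Of these cells 955, 277 and 747 were in the erythroid-like class. In cells with at least 2 of 8 erythroid markers, which numbered 3833, 1562 and 3076, it stood at 92.7, 3.51 and 0.856 CPM.

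In other blood and vessel classes *SRGN* was far closer between the ages. Megakaryocyte-like cells, 57, 12 and 10 in number, stood at 367 CPM (302 to 442), 238 CPM (130 to 399) and 428 CPM (258 to 669). Myeloid-like cells, 14, 49 and 20 in number, stood at 67.9 CPM (33.9 to 122), 126 CPM (91.3 to 170) and 152 CPM (95 to 230). Endothelial-like cells, 52, 286 and 170 in number, stood at 47.1 CPM (28.7 to 72.7), 30.8 CPM (23.9 to 39.2) and 20 CPM (13.6 to 28.3). The ratio of E16 HS to E19 HS was 1.54 in megakaryocyte-like cells (0.882 to 2.92), 0.538 in myeloid-like cells (0.25 to 1.06) and 1.53 in endothelial-like cells (0.877 to 2.55). All 3 intervals include 1. Against E19 HSTS, endothelial-like cells of E16 HS stood higher, at 2.36 (1.27 to 4.27), and myeloid-like cells lower, at 0.448 (0.196 to 0.964).

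With the erythroid-like cells left out, the ratio of E16 HS to E19 HS for *SRGN* fell from 16.9 to 2.02 (1.65 to 2.49). In E16 HS the gene was also counted in classes thought to lack it, at 2.85 CPM in mesenchyme-like and 2.03 CPM in somite-like cells, against 0.137 CPM and 0 UMIs in E19 HS. That low level moved with the level in the erythroid-like cells of the same library, and the part of free RNA in it was not tested. Of the granule genes listed with *SRGN*, 3 were measured, and *GZMA*, *PRF1* and *HPSE* had at most 4 UMIs in any library.

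**Figure D4:**
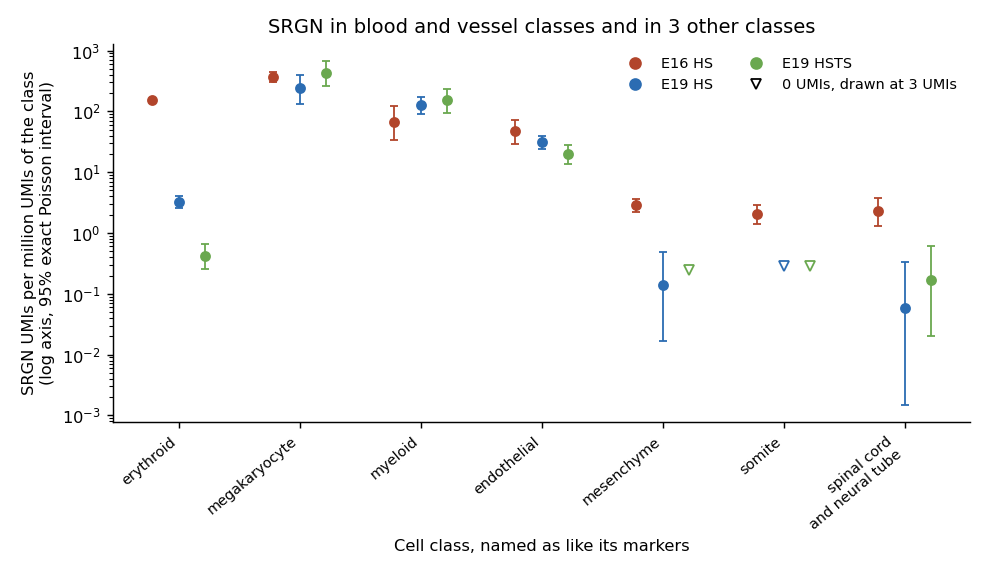
*SRGN* UMIs per 1000000 UMIs of a cell class (vertical axis, logarithmic) by class and library; bars are exact 95% Poisson intervals and open triangles stand at 3 UMIs where none was counted. Erythroid-like cells drop from 154 to 3.25 and 0.418, while megakaryocyte-like, myeloid-like and endothelial-like cells stay within 20 to 428.

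*FOXK1* was neither bound to a cell type nor low at day 19 as such. In E16 HS it was seen in 860 cells, 214 of them in cluster 11, and its level ran from 5.19 CPM (4.38 to 6.11) in erythroid-like cells through 7.93 CPM (6.6 to 9.44) in somite-like and 8.4 CPM (6.33 to 10.9) in spinal cord-like cells to 11.3 CPM (10 to 12.6) in mesenchyme-like cells. The lowest and the highest of these intervals do not overlap. It stood at 17.3 CPM (13.8 to 21.4) in cluster 24 and 13.0 CPM (11.4 to 14.7) in cluster 11. Most carriers had a single UMI, and 68 had 2 or more.

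In E19 HS the gene was low in each large class. It stood at 0.658 CPM in somite-like, 0.652 in spinal cord-like, 0.55 in mesenchyme-like, 1.07 in urogenital-like and 0.274 in erythroid-like cells. In E19 HSTS the same classes stood at 6.23, 6.57, 5.95, 7.21 and 1.7 CPM. In all 5 classes the E19 HSTS interval lay wholly above that of E19 HS. The mesenchyme-like and erythroid-like classes were made of different main clusters at the 2 ages.

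Over classes with at least 10 cells in both libraries and at least 1 UMI of the gene, the ratio of E16 HS to E19 HS had an interval above 1 in 10 of 17, and E19 HSTS lay above E19 HS in the same way in 10 of 18. The ratio of E16 HS to E19 HSTS had an interval above 1 in 4 of 18. In somite-like, spinal cord-like and urogenital-like cells that last ratio was 1.27 (0.937 to 1.74), 1.28 (0.888 to 1.83) and 1.19 (0.741 to 1.9), so *FOXK1* did not differ there between the E16 HS and E19 HSTS libraries beyond counting error. It did in mesenchyme-like cells, at 1.89 (1.46 to 2.48), and in erythroid-like cells, at 3.06 (2.31 to 4.09).

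**Figure D5:**
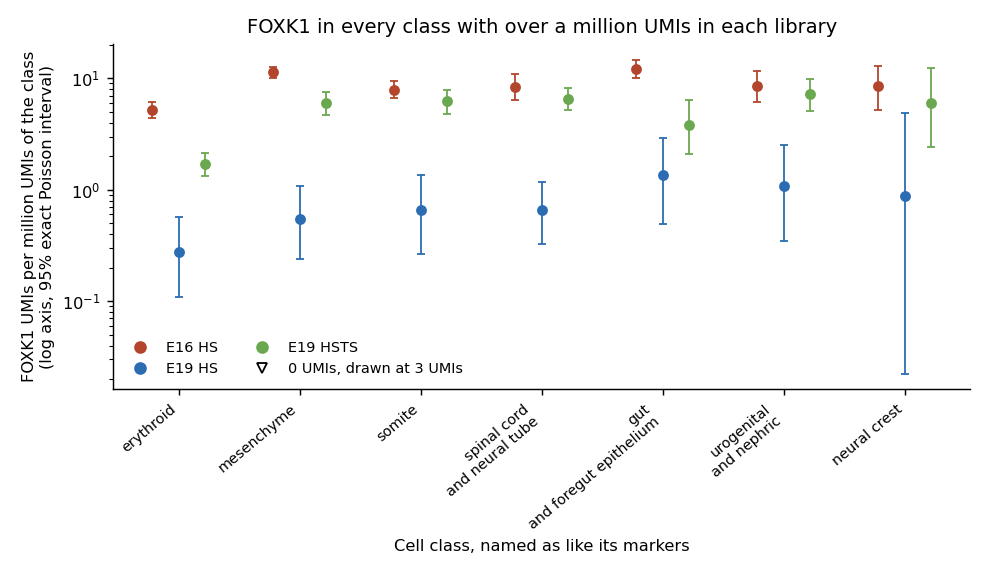
*FOXK1* UMIs per 1000000 UMIs of a cell class (vertical axis, logarithmic) for the 7 classes with over 1000000 UMIs in each library; points are libraries and bars exact 95% Poisson intervals. E19 HS is the lowest library in every class drawn, for example at 0.658 in somite-like cells beside 7.93 in E16 HS and 6.23 in E19 HSTS.

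Reweighting to the cell classes of E16 HS left *FOXK1* at 0.664 CPM in E19 HS (0.406 to 1.21) and raised it to 5.44 CPM in E19 HSTS (4.28 to 7.24), beside 8.29 CPM in E16 HS. The weighting thus left the E19 HS level where it was, at 0.665 CPM before it. Over whole libraries *FOXK1* was 6.3 times as high in E19 HSTS as in E19 HS (4.79 to 8.42). That is past 4-fold, as in 0.24% of the 10001 genes with at least 100 UMIs in the higher library and 0.126% of the 6326 with at least 500, which its 417 UMIs do not reach, although *FOXK1* was chosen partly for being low in E19 HS. Genes at least 4-fold lower in E19 HS than in both other libraries made up 0.071% of 7043, which is 5 genes: *FOXK1*, *REG4* on 8 UMIs in E19 HSTS, and 3 with no symbol.

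The relative *FOXK2* had 1019, 747 and 821 UMIs, a ratio of 1.07 between E16 HS and E19 HS (0.972 to 1.18). The corepressor *SIN3A*, which FOXK proteins bind, stood at 1.71 (1.59 to 1.85) and *SIN3B* at 0.813 (0.619 to 1.07). None of the other 3 measured genes of the list came near the 12.5-fold of *FOXK1*, which was chosen for this contrast. In *FOXK1* carriers no gene reached the ratios of the other lists: the highest was 3.11 (3.02 to 3.2) for *AHSG*, a liver and yolk sac protein, and the tenth was 1.93.

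Weighting E19 HS to the clusters it shared with E16 HS puts the 6 genes side by side. In those clusters *REG4* stood at 1.79 CPM in E16 HS and 0.016 CPM (0.000406 to 0.824) in E19 HS, and the clusters left out held 95.1% of its E16 HS UMIs. *UPK3A* stood at 1.54 and 0.382 CPM (0.228 to 1.15), with 96.6% in the clusters left out, and *NRG2* had 89.8% there. *SRGN* stood at 12.2 and 1.78 CPM (1.24 to 2.8), with 82.7% left out, and *FOXK1* at 7.34 and 0.796 CPM (0.39 to 1.76), with 48.8%. The low E16 HS levels of *REG4* and *UPK3A* outside their carrier clusters are near those in cells thought to lack them, and the part of free RNA in them was not tested. All 3 carrier clusters, 11, 24 and 6, were thus nearly absent at day 19. In the broader class that held its carriers and remained at day 19, each of *REG4*, *UPK3A*, *NRG2*, *PMP22* and *SRGN* was lower in E19 HS, and so the answer depends on whether cells are matched by cluster or by class. Those classes pool the carrier clusters with others, so the make-up of a class and the level in its cells are not separated there. *SRGN* was also lower inside the shared cluster 23, *PMP22* stood at like levels on average over the shared clusters, and *FOXK1* was low across classes in E19 HS alone. The libraries were clustered without batch correction, so a cluster can also empty where cells of the same type differ between libraries. Whether the carrier cells were gone from the embryo, not recovered with it, or placed in other clusters cannot be told apart.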

How the data were processed

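Per the labels and methods, the authors made single-cell 3′ libraries and counted UMIs with Cell Ranger 6.1.2 on the sheep genome Ovis_aries_genome_v1.0, with R 4.1.2 and Seurat 4.1.1 downstream. The deposited matrices hold raw UMI counts per gene and barcode. The study imputed its data; the raw counts were used here, and no imputed values. Kept cells had 1000 to 30000 UMIs on 200 to 6000 genes, with mitochondrial UMIs at or under 10%. The 3 libraries were clustered with Seurat 5.3.0 (log-normalised to 10000, 2000 variable genes without the 6 genes, 25 components, resolution 1) and without batch correction. Clusters were named by their 10 leading genes from 25 marker lists. Where no marker was among those 10, the mean standardised level of a list's markers was used. Somite-like cluster 15, with 21, 348 and 405 cells, was named in that way and was led by the muscle genes *MYLPF* and *TNNC2*. Urogenital-like cluster 31 was also named so. Doublets were scored with Scrublet in scanpy 1.11.5, which called 198, 0 and 193 cells in E16 HS, E19 HS and E19 HSTS. Its calls thus did not work in E19 HS, where only the ranking of the scores could be used. Doublets were kept in the values given. With 1 library per condition no test was run: levels have exact Poisson, shares Clopper-Pearson, ratios exact conditional binomial and weighted levels gamma intervals, at 95%, from scipy 1.17.1. Total UMIs were 88733467 to 113213654 per library. A count of 0 was taken to allow 3 UMIs. Cells were thinned to 3000 UMIs with 1317, 1345 and 1106 shallower cells left out.

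Named genes were the 6, the members of 6 family lists and the marker lists, and for each of the 6 the 10 genes most enriched in E16 HS cells with a UMI of it, seen in at least 10% of them and with at least 20 UMIs. The 6 genes and all lists were chosen with earlier results of these data known. Counts of cells with 2 or 3 enriched genes, and weights by cluster, were added after seeing the data. Alternatives were a stricter filter (500 genes, 5% mitochondrial), all barcodes, no high doublet scores, no erythroid-like cells, TMM scaling in edgeR 4.0.16, other clusterings, 2 UMIs for a carrier and 100 UMIs for a rank. Intervals and weights were tested on simulated data. Genome positions and sequences are not given, since the reference table used another build and held no sequence. Some genes of the lists are not reported here.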

Additional observations from a re-analysis of the deposited data

Results flagged for a closer look

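One result lay in data that the comparisons of kept cells do not use. The E16 HS barcodes with over 30000 UMIs or over 6000 genes, which the filter leaves out, held 3882 *UPK3A* UMIs in 312 barcodes, against none in the 125 and 171 such barcodes of E19 HS and E19 HSTS. Groups of a single library allow no search for outlying samples.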

How the results depend on the processing

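No paired analysis was possible because each condition is 1 library, and no replicate could be left out. No ratio of E16 HS to E19 HS changed direction. It moved beyond its counting interval for *UPK3A* (42.7) with the stricter filter, to 32.4, and with all deposited barcodes, to 93.8; for *SRGN* (16.9) without the highest doublet scores, to 20.4, without erythroid-like cells, to 2.02, and with TMM scaling, to 14.7; and for *PMP22* (12.5) with TMM scaling, to 10.8. Among genes with a symbol, a minimum of 100 UMIs in place of 500 moved *UPK3A* from rank 2 to 6, *NRG2* from 3 to 9, *SRGN* from 4 to 10, *FOXK1* from 6 to 14 and *PMP22* from 7 to 15. The E19 HS level weighted to E16 HS classes moved for *UPK3A* (1.02 CPM) with clusters as weights, to 0.382; for *NRG2* (0.316) at resolution 0.25, to 0.184; for *SRGN* (1.81) without erythroid-like cells, to 1.34; and for *PMP22* (3.36) without erythroid-like cells, to 4.41, at resolution 0.25, to 12.7, as a pair of libraries, to 4.52, and with clusters, to 5.22. Shares of E16 HS cells with a UMI fall by construction when cells are thinned or 2 UMIs are asked for: *REG4* 7.7% to 3.8% and 4.47%, *UPK3A* 3.58% to 2.47% and 2.56%, *NRG2* 3.56% to 1.14% and 0.777%, *SRGN* 15.3% to 7.35% and 9.87%, *FOXK1* 7.59% to 2.4% and 0.6%, *PMP22* 11% to 5.35% and 6.4%. With 2 UMIs for a carrier, 6 of the first 10 genes of *NRG2* and 4 of those of *FOXK1* stayed in the list, and 7 to 9 for the other 4 genes. Where no cause is named it was not tested. *NRG2* and *FOXK1* are limited by depth, at 1 UMI in most carriers.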
